A study of Mus musculus with 4 samples.

Results

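The 4 genes described here are Mt1 and Mt2, which encode metallothioneins, Mtf1, which encodes the transcription factor that reads cellular zinc, and Slc30a1, which encodes the zinc exporter ZnT1. They were chosen by symbol, and each symbol matched a single gene of the 32285 in the count matrices. Leukocytes carrying CD45 were sorted from mouse left lung grafts (strain B6, transplanted into recipients of the same strain) and sequenced as single cells. The grafts had been kept for 60 min at 4 °C and for 45 min at 28 °C, and were taken 2 h after reperfusion. The 4 groups were RvD1 donor, vehicle donor, RvD1 recipient and vehicle recipient cells, where donor and recipient name the animal that a leukocyte came from. Resolvin D1 (RvD1), a lipid mediator derived from docosahexaenoic acid, was injected into a vein of the recipient just before surgery at 200 ng in 200 µL of 1% ethanol, according to the treatment protocol, whereas the design text speaks of treated grafts. Each group was 1 library made from 2 pooled lungs. The sources used here do not say if the same lungs gave both the donor and the recipient cells of a treatment, and they name no age or allele.

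Metallothioneins are small cysteine-rich proteins that hold zinc and copper, buffer free zinc and react with oxidants. When free zinc rises, it binds the zinc fingers of MTF1, which then binds metal response elements in target promoters and raises transcription of the metallothionein genes and of Slc30a1, whose product moves zinc out of the cytosol. Metallothionein genes are also raised by glucocorticoids and by inflammatory cytokines, and in myeloid cells zinc handling is part of the response to injury and infection.

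In GENCODE M21 (GRCm38), Mt2 lies on the plus strand at chr8:94172664-94173568 and Mt1 on the same strand at chr8:94179082-94180327, with 5513 bases between the end of Mt2 and the start of Mt1. Mtf1 lies at chr4:124802104-124849800 and Slc30a1 at chr1:191906767-191913247, both on the plus strand. Metal response element cores, spelled TGCACNC and TGCGCNC and searched on both strands, were looked for in the first 130 bases of the first-numbered transcript of each gene. Mt1 held 4 matches, and 0.0298% of 50317 such transcripts held at least as many. Mt2 held 3, matched or passed by 0.211%, and Slc30a1 held 1, matched or passed by 10.6%. Mtf1 held no match. The 4 stretches of 30 bases that carry the Mt1 and Mt2 matches are shown because these genes are the textbook MTF1 targets, with each core in capitals.
Mt1 chr8:94179089-94179118, plus strand, GRCm38: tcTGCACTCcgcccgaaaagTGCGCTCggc
Mt1 chr8:94179169-94179198, plus strand, GRCm38: tgctGGGTGCAaacccttTGCGCCCggact
Mt2 chr8:94172674-94172703, plus strand, GRCm38: gcGTGTGCAggcggcgggggcGCGTGCAtg
Mt2 chr8:94172718-94172747, plus strand, GRCm38: ggcggagctttTGCGCTCgacccaatactc

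The same cores were searched in a window from 250 to 21 bases before each RefSeq start (GRCm38.p6). The Mt2 window at chr8:94172368-94172597 held 3 matches, and 1.06% of 32851 promoters held at least 3. The Slc30a1 window at chr1:191906531-191906760 held 1 match, and 19.5% of promoters held at least 1. No match was found in the Mt1 or Mtf1 window, so the letters TGCACNC and TGCGCNC are not in those 230 bases. This depends on the start used, since 2 other Mt1 transcripts of GENCODE M21 start at 94179211 and 94179241, downstream of all 4 matches found in the first-numbered transcript. Likewise another Mt2 transcript starts at 94172860, downstream of the matches in the first-numbered Mt2 transcript. A match describes letters and not binding. The 2 windows with matches follow, from RefSeq, with cores in capitals.
Mt2 chr8:94172368-94172597, plus strand, GRCm38.p6: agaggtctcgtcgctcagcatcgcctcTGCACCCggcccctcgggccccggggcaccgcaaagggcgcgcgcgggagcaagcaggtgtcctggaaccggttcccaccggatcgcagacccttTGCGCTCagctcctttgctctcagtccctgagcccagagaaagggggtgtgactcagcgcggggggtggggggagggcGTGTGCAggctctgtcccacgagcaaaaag
Slc30a1 chr1:191906531-191906760, plus strand, GRCm38.p6: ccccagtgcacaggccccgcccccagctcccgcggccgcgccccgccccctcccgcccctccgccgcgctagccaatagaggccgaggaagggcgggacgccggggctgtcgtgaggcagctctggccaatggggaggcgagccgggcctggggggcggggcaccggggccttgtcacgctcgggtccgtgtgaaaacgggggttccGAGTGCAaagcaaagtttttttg

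The libraries held 5195 (RvD1 donor), 5743 (vehicle donor), 7836 (RvD1 recipient) and 5987 (vehicle recipient) barcodes with between 42199775 and 61294707 UMIs, where a UMI (unique molecular identifier) marks 1 captured RNA molecule. After filtering, 5027, 5535, 7348 and 5827 cells were used in the same order, with median depths of 6465, 7926, 5389 and 5829 UMIs. Pairs of libraries shared between 4 and 15 barcodes. Clusters were named from marker genes, and between 0.704% and 2.60% of the cells of a library stayed unnamed. The RvD1 matrices were made with Cell Ranger 7.0.1 and the vehicle matrices with Cell Ranger 6.1.1, so the software version and the treatment cannot be told apart in any RvD1 to vehicle ratio below. Levels are given in CPM (the UMIs of the gene scaled to 1e6 UMIs of the class in that library). Intervals are exact 95% intervals that cover counting error only, and with 1 library per group no test and no p-value is given.

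Among leukocytes with at least 30 cells in a library, Mt1 was highest in macrophages, dendritic cells and classical monocytes. Macrophages that carry C1q genes, few in number, had the highest level of these, with 6375 CPM in 34 RvD1 donor cells and 8514 CPM in 40 vehicle donor cells. Alveolar macrophages, the resident macrophages of the airspace, had 3191 CPM in 41 RvD1 donor cells and 3662 CPM in 225 vehicle donor cells. Their median depth was 3159 UMIs in RvD1 donor cells and 28797 UMIs in vehicle donor cells. Donor dendritic cells, which present antigen, had 3182 CPM with RvD1 and 3412 CPM with vehicle, and the 34 RvD1 recipient dendritic cells had 1200.3 CPM. Of the few cells that were no leukocytes, fibroblasts had 11624 CPM in 10 RvD1 donor, 7977 CPM in 15 RvD1 recipient and 16673 CPM in 2 vehicle recipient cells. Classical monocytes, which enter tissue from blood, had 1364 CPM in RvD1 donor, 1667 CPM in vehicle donor, 1468 CPM in RvD1 recipient and 2182 CPM in vehicle recipient cells. Among the 6 classes with at least 100 cells in every library, classical monocytes had the highest Mt1 level in all 4 libraries. In them 92.3%, 87.0%, 80.8% and 89.0% of cells held an Mt1 UMI in the same order, at median depths between 11889 and 15478 UMIs.

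The other classes held far less Mt1. Nonclassical monocytes, which patrol the vessel wall, had 173, 229, 179 and 220.0 CPM in RvD1 donor, vehicle donor, RvD1 recipient and vehicle recipient cells. Neutrophils, the first granulocytes to enter an injured lung, had 118, 153, 180.3 and 320.0 CPM in the same order. These neighbours changed places between libraries, since nonclassical monocytes were above neutrophils in both donor libraries, level with them in the RvD1 recipient library, where the intervals overlapped, and below them in the vehicle recipient library. Group 2 innate lymphoid cells, found almost only in donor libraries, had 572 CPM in 86 RvD1 donor cells and 459 CPM in 73 vehicle donor cells. In each of these libraries 5 cells of the class held UMIs of both Mt1 and Mt2. They were 45.5% of the RvD1 donor cells with an Mt1 UMI and 27.8% of the vehicle donor ones, so few cells carried Mt1. NK cells had 22.4, 36.7, 14.2 and 58.4 CPM in the order used for neutrophils. T cells had 74.2, 57.8, 18.1 and 38.7 CPM and B cells 165, 32.6, 18.2 and 17.0 CPM. The vehicle recipient library was highest for NK cells and the RvD1 donor library for T and B cells, and gamma-delta T cells had 13.4 CPM in RvD1 donor and 49.2 CPM in vehicle donor cells. Basophils were lowest in the RvD1 recipient library, with 2.78 CPM and a UMI in 1.49% of 67 cells.

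**Figure D1:**
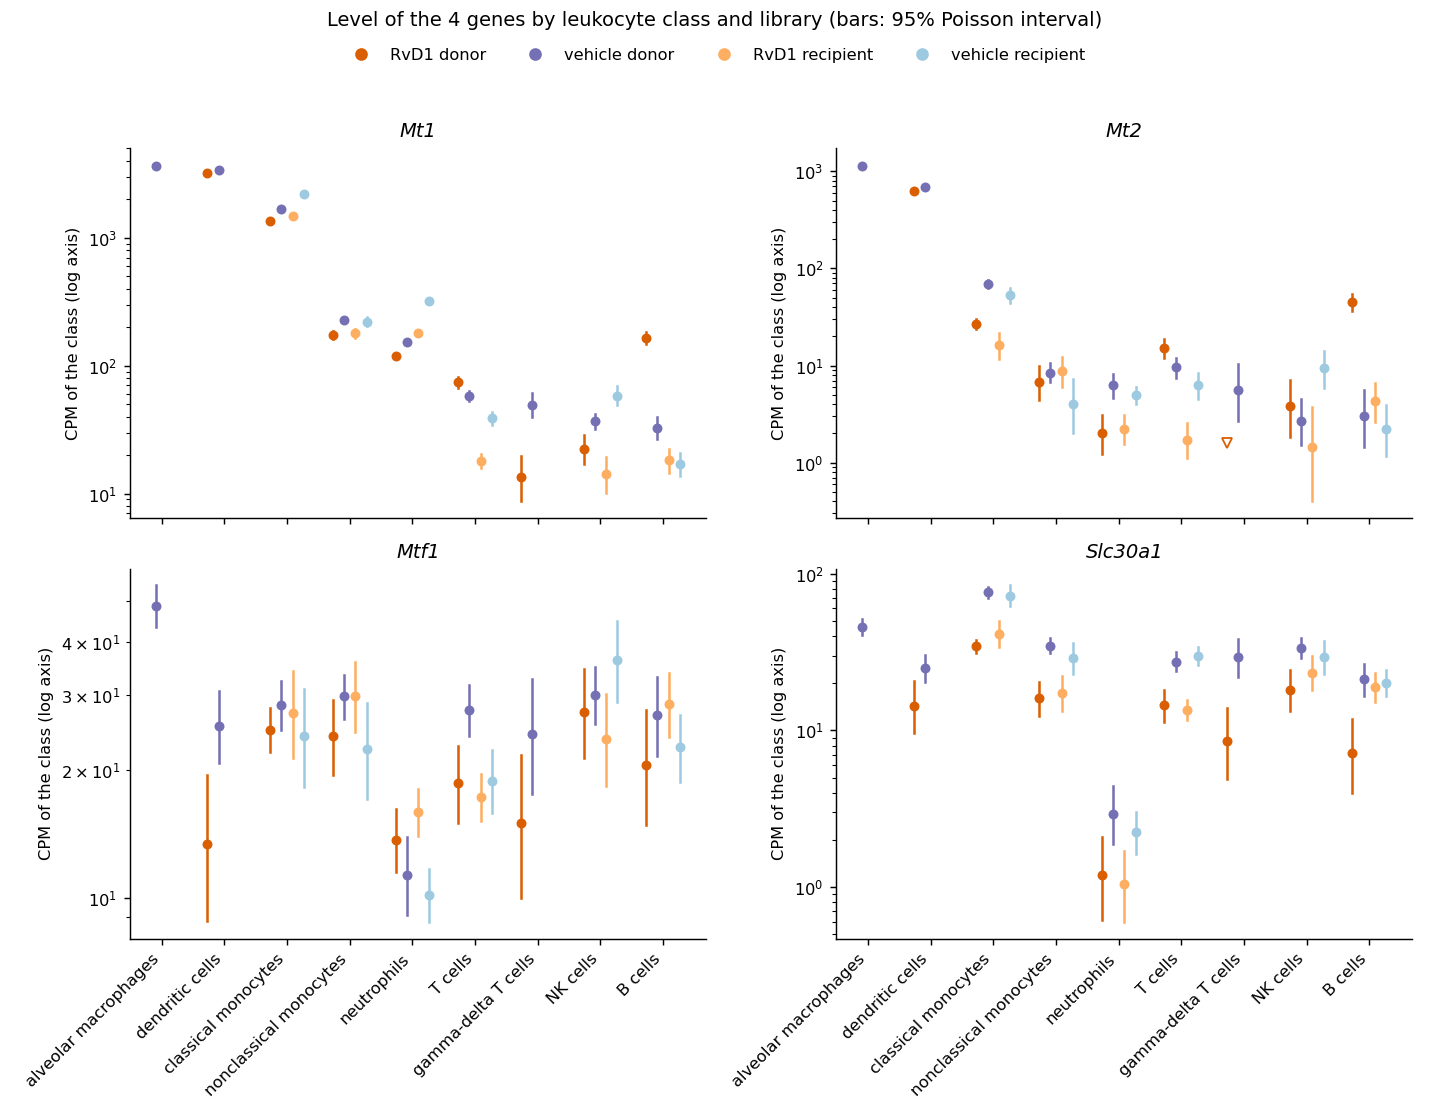
Level of Mt1, Mt2, Mtf1 and Slc30a1 in CPM (log axis) by leukocyte class, with 1 point per library of at least 100 cells and bars for the exact 95% Poisson interval; an open triangle marks a library at 0. Classical monocytes hold 1364 to 2182 CPM of Mt1, and neutrophils hold the lowest Slc30a1 levels, between 1.05 and 2.95 CPM.

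Mt2 followed Mt1 across macrophages and dendritic cells but was scarce in monocytes. It had 1438 CPM in RvD1 donor and 1905 CPM in vehicle donor C1q macrophages, 721 and 1138 CPM in alveolar macrophages, and 627 and 692 CPM in dendritic cells of the same libraries. In classical monocytes it had 26.8 CPM in RvD1 donor, 69.2 CPM in vehicle donor, 16.2 CPM in RvD1 recipient and 52.6 CPM in vehicle recipient cells. Nonclassical monocytes (4.03 to 8.68 CPM) and neutrophils (2.00 to 6.27 CPM) stayed under 10 CPM in every library.

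Mt2 made up 18.4% of the UMIs of both genes in RvD1 donor C1q macrophages (interval 16.8 to 20.1) and 18.3% in vehicle donor ones. In donor dendritic cells it made up 16.5% with RvD1 and 16.9% with vehicle. In classical monocytes the share was 1.93% in RvD1 donor, 3.99% in vehicle donor, 1.09% in RvD1 recipient and 2.36% in vehicle recipient cells, and in neutrophils it was 1.66%, 3.94%, 1.22% and 1.52%. No interval of either class overlapped that of donor dendritic cells or C1q macrophages. T cells ranged between 8.73% in RvD1 recipient and 16.9% in RvD1 donor cells, and the interval of the RvD1 donor cells (13.5 to 20.6) overlapped those of donor dendritic cells and C1q macrophages. Dendritic cells of the recipient differed from each other: the 34 RvD1 recipient cells had 2.74% (interval 1.60 to 4.35), in the range of monocytes, and the 8 vehicle recipient cells had 20.8% (17.1 to 25). The 25-base words of the Mt1 and Mt2 transcripts were nearly private, with 0.237% of those of Mt1 and 2.25% of those of Mt2 found in another gene, so reads of these genes could seldom be split with another.

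**Figure D2:**
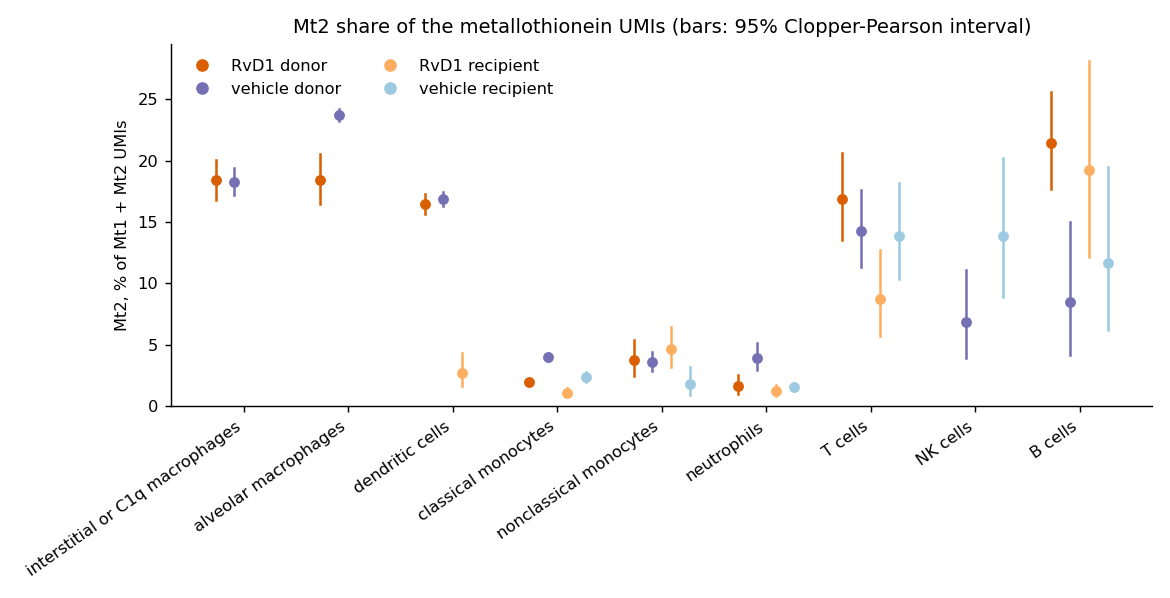
Mt2 as a percentage of Mt1 plus Mt2 UMIs (y axis) by class, with 1 point per library of at least 30 cells and bars for the exact 95% Clopper-Pearson interval. C1q macrophages and donor dendritic cells lie between 16.5% and 18.4%, the 34 RvD1 recipient dendritic cells lie at 2.74%, and classical monocytes and neutrophils lie under 4%.

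The Mt1 level of neutrophils came from few cells. Only 10.5% of RvD1 donor, 19.4% of vehicle donor, 12.6% of RvD1 recipient and 18.5% of vehicle recipient neutrophils held an Mt1 UMI, at median depths between 4864 and 5341 UMIs. In B cells, a class with little Mt1, the shares were 5.84%, 11.5%, 3.17% and 4.74%. The tenth of neutrophils with the most Mt1 UMIs held 99.2%, 89.3%, 97.1% and 91.4% of the Mt1 UMIs of the class in the same order. Neutrophils with at least 10 Mt1 UMIs made up 1.82% of RvD1 donor, 2.90% of vehicle donor, 2.98% of RvD1 recipient and 6.26% of vehicle recipient neutrophils. The vehicle recipient library was the highest in CPM and in this share. Summed classical monocyte markers in those Mt1-rich neutrophils were 97.9, 585, 54.0 and 54.1 CPM, against 225, 286, 71.1 and 79.3 CPM in the other neutrophils of the same libraries, so that 3 of 4 libraries had less of them in the Mt1-rich cells. Summed C1q macrophage markers were 263, 326, 254 and 254 CPM in the Mt1-rich neutrophils, against 245, 262, 227 and 207 CPM in the other neutrophils. The Mt1-rich groups held 35, 41, 91 and 209 cells in the same order. These marker sums carry no interval, so small differences cannot be told from counting error. Summed alveolar macrophage markers in vehicle donor neutrophils were 649 CPM in the Mt1-rich cells and 249 CPM in the others, and those of the other libraries are not given here. The part of these cell types in the Mt1 level was not tested.

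**Figure D3:**
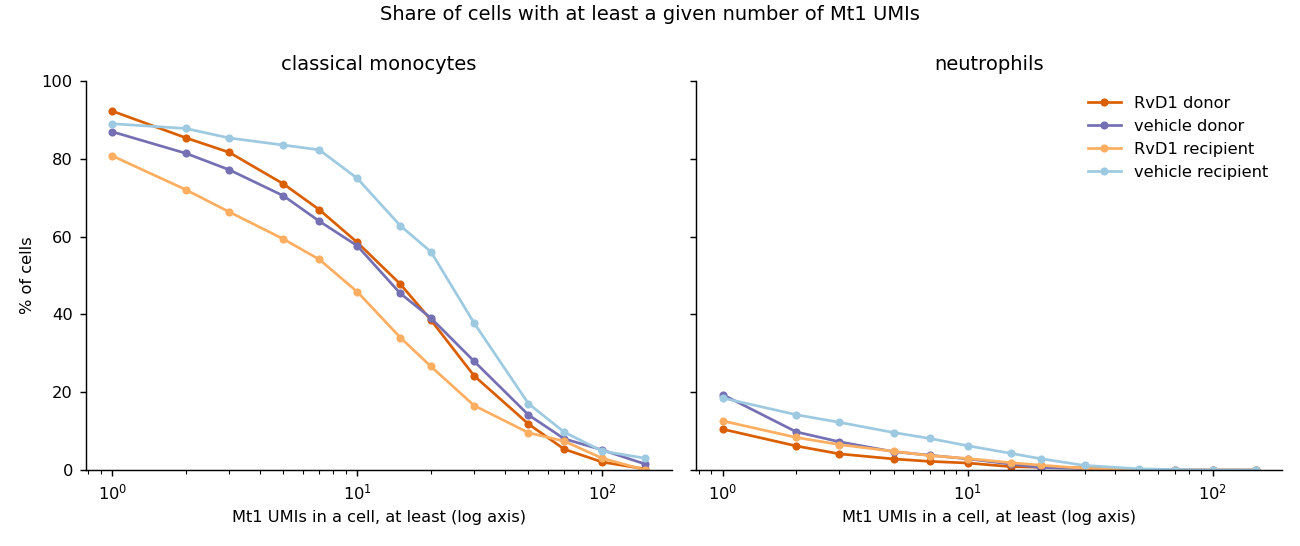
Share of cells (y axis, %) with at least a given number of Mt1 UMIs (x axis, log) in classical monocytes and neutrophils, with 1 line per library. At 10 UMIs the lines of classical monocytes stand between 45.9% (RvD1 recipient) and 75% (vehicle recipient), and those of neutrophils between 1.82% and 6.26%.

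Mtf1 lay between 10.1 and 52.3 CPM in the classes named here. Alveolar macrophages had the highest level of those with over 100 cells, 48.7 CPM in vehicle donor cells, beside 52.3 CPM in the 41 RvD1 donor cells. Classical monocytes had 24.9, 28.5, 27.2 and 24.0 CPM in RvD1 donor, vehicle donor, RvD1 recipient and vehicle recipient cells, and neutrophils had 13.7, 11.3, 15.9 and 10.1 CPM. NK, T, B and nonclassical monocyte values lay between 17.3 and 36.3 CPM, and most of their intervals overlapped.

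Of the 6 classes with at least 100 cells in every library, classical monocytes had the highest Slc30a1 level, with 34.3 CPM in RvD1 donor, 76.1 CPM in vehicle donor, 41.2 CPM in RvD1 recipient and 72.5 CPM in vehicle recipient cells. Both RvD1 libraries lay under both vehicle libraries, and their intervals did not meet. Alveolar macrophages had 41.3 CPM in the 41 RvD1 donor cells and 45.9 CPM in vehicle donor cells. A Slc30a1 UMI was seen in 35.4%, 50.2%, 34.5% and 50% of classical monocytes in the same order, and after each cell was thinned to 500 UMIs in 1.70%, 3.73%, 1.96% and 3.39%. In neutrophils, the lowest of the 6 classes in all 4 libraries, it was seen in 0.625%, 1.55%, 0.459% and 1.14% of cells, and its level was 1.2, 2.95, 1.05 and 2.24 CPM.

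RvD1 and vehicle libraries were compared within donor cells and within recipient cells, in each class with at least 100 cells in both libraries, which gave 14 comparisons. A gene was described in a comparison where it had at least 100 UMIs over both libraries, and called higher or lower from 1.5-fold. Of all described values of all genes, 10.2% were at least 1.5-fold lower and 6.09% at least 1.5-fold higher.

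Slc30a1 was lower in RvD1 libraries. It was described in 10 comparisons, below zero on the log2 scale in all 10 and at least 1.5-fold lower in 8, with a median log2 ratio of -0.86. Of the 5595 genes described in at least 10 comparisons, 6.11% were below zero in each comparison that described them. In the same set 1.29% were at least 1.5-fold lower in at least 8. Of the 3333 genes described in at least 14 comparisons, 6.87% were below zero in each. In classical monocytes the log2 ratio was -1.15 in donor cells (interval -1.34 to -0.96) and -0.81 in recipient cells (-1.17 to -0.46), where 9.14% and 9.21% of genes were at least 1.5-fold lower and 2.69% were so in both. T cells had 14.4 CPM in RvD1 donor, 27.4 CPM in vehicle donor, 13.5 CPM in RvD1 recipient and 29.8 CPM in vehicle recipient cells. Their log2 ratios were -0.92 and -1.15, against a background of 10.2% and 4.97% lower and 1.95% in both. Nonclassical monocytes had 16, 34.6, 17.4 and 29.0 CPM in the same order, with log2 ratios of -1.11 and -0.74, where 12.3% and 11.6% of genes were lower and 5.84% in both. Summed markers of neutrophils in this class were 10312 CPM in RvD1 donor, 9283 CPM in vehicle donor, 6287 CPM in RvD1 recipient and 30636 CPM in vehicle recipient cells, and their part in the recipient value was not tested. Donor dendritic cells had 14.4 CPM with RvD1 and 25.1 CPM with vehicle, a log2 ratio of -0.81 (-1.45 to -0.20), where 9.13% of genes were lower. NK cells had 18.1, 33.8, 23.4 and 29.4 CPM, and only the donor value (log2 ratio -0.90) passed 1.5-fold, where 8.18% of genes did. The recipient value of NK cells was -0.33 (interval -0.85 to 0.18), and that of B cells was -0.10 (-0.52 to 0.32). Donor B cells, donor gamma-delta T cells and both neutrophil comparisons held under 100 Slc30a1 UMIs and were not described, with ratios of -1.56, -1.78, -1.30 and -1.09.

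**Figure D4:**
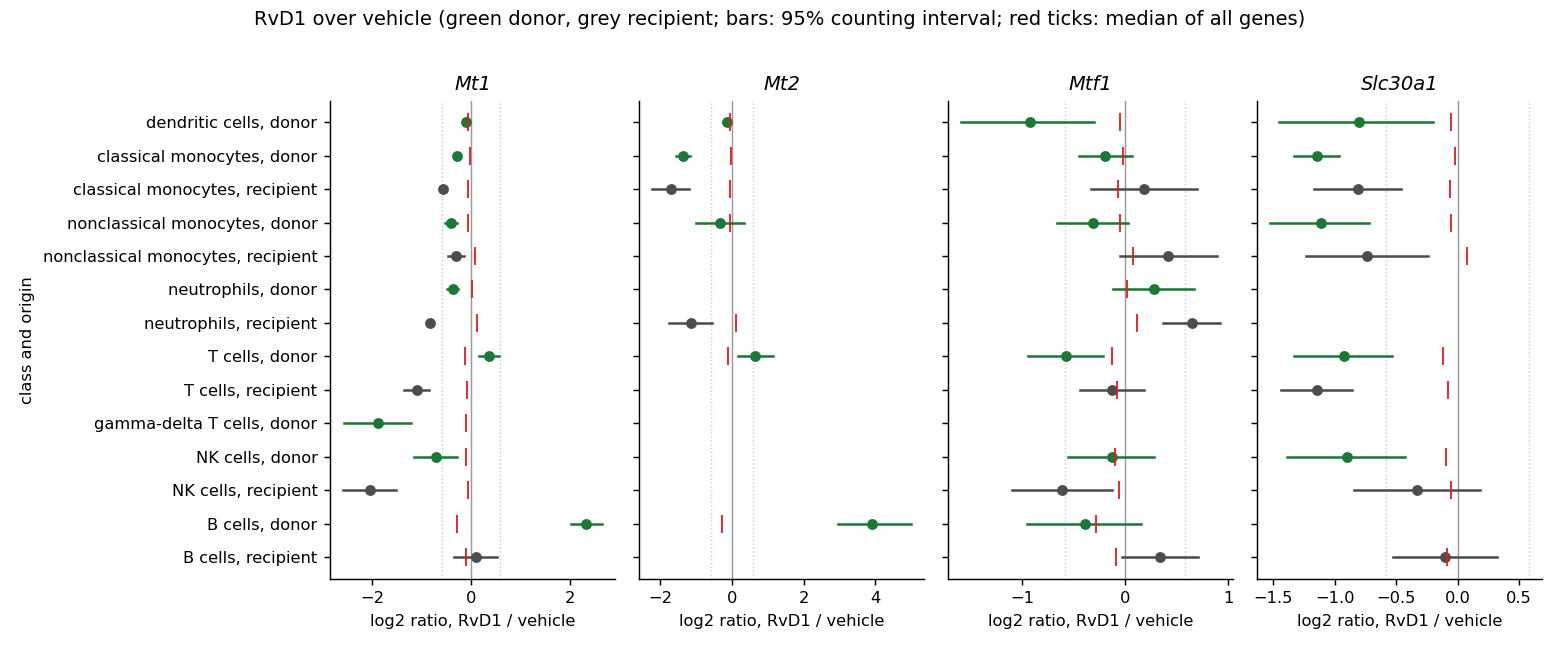
Log2 ratio of RvD1 to vehicle levels (x axis) for each gene by class and origin, green for donor and grey for recipient cells, with exact 95% counting intervals and a red tick at the median of all genes. Slc30a1 lies left of the red ticks in all 10 comparisons shown, by the least in recipient B cells at -0.10.

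The same held within clusters. Clusters with at least 50 cells in both libraries and at least 30 Slc30a1 UMIs over both were compared, and Slc30a1 was below zero in 10 of 10 donor clusters (log2 ratios -2.15 to -0.44) and in 9 of 9 recipient clusters (-1.61 to -0.10). Of the genes described in at least 10 donor clusters, 3.01% were below zero in each donor cluster that described them. For at least 9 recipient clusters the share was 2.21%. Many of these genes were described in more clusters than Slc30a1 and so needed more negative values. Among genes described in at least 18 donor clusters the share was 3.26%, and in at least 16 recipient clusters 2.63%. Within T cells, the cluster led by Trib2 had 7.94 CPM in RvD1 donor and 35.4 CPM in vehicle donor cells, and 15.4 CPM in RvD1 recipient and 33.4 CPM in vehicle recipient cells. The nonclassical cluster led by Adgre4, cluster 16, had 11.8 and 29.4 CPM in RvD1 and vehicle donor cells but 19.9 and 22.7 CPM in RvD1 and vehicle recipient cells, whose intervals overlapped. Genes with the intron length of Slc30a1, between 1 and 2000 bases, had median log2 ratios above zero in all 14 comparisons. The medians were 0.21 in donor and 0.11 in recipient classical monocytes, and Slc30a1 lay 1.36 and 0.93 below them. The group of genes with the longest introns had a lower median than this group in each comparison. Its median was -0.14 in donor and -0.23 in recipient classical monocytes, and ranged from -0.52 in donor B cells to 0.01 in recipient neutrophils. The ratios thus differed with intron length, and the part of the Cell Ranger version in this was not tested.

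**Figure D5:**
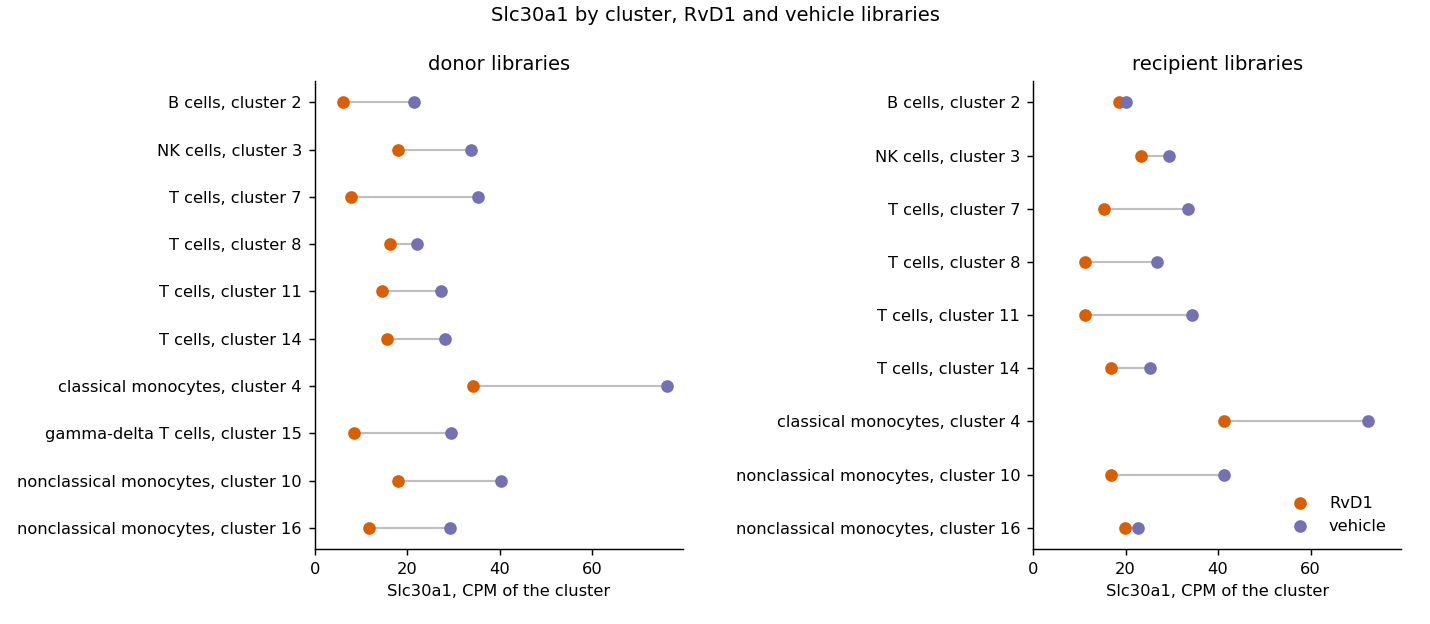
Slc30a1 level in CPM of the cluster (x axis) for RvD1 and vehicle libraries in every cluster compared, donor cells on the left panel and recipient cells on the right. The RvD1 point lies left of the vehicle point in all 10 donor and all 9 recipient clusters, and the points are closest in recipient B cells of cluster 2.

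The metallothionein ratios lay below zero in every myeloid comparison described, although those of donor dendritic cells (-0.10 for Mt1 and -0.14 for Mt2) were 0.02 and 0.03 at Leiden resolution 2, a finer clustering. The all-gene medians of the 14 comparisons lay between -0.28 and 0.12 and most were below zero, so a negative sign was common among all genes. The share of genes with as many negative values as Mt1 was not counted. Mt1 was described in all 14 comparisons and was below zero in 11, at least 1.5-fold lower in 5 and higher in 1, with a median log2 ratio of -0.39. Its ratio was -0.29 in donor classical monocytes (interval -0.32 to -0.26) and -0.57 in recipient ones (-0.63 to -0.51), both inside 1.5-fold, although the recipient value passed it under 4 alternatives (-0.60 to -0.73). In neutrophils it was -0.37 in donor and -0.83 in recipient cells, where 15.3% and 12.7% of genes were at least 1.5-fold lower. Among neutrophils cluster 0, led by Enthd1, held 10.9% of RvD1 donor, 63.4% of vehicle donor, 2.39% of RvD1 recipient and 41.2% of vehicle recipient cells, so the clusters that make up the class differ between libraries. Without cluster 0, an alternative added after the data were seen, the donor log2 ratio of Mt1 was -0.78.

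Mt2 was described in 7 comparisons, at least 1.5-fold lower in 3 and higher in 2. The comparisons with under 100 Mt2 UMIs went both ways, and among them recipient nonclassical monocytes had 32 UMIs with RvD1 and 11 with vehicle, a log2 ratio of 1.11 (0.08 to 2.24), and donor neutrophils had a ratio of -1.65. Mt2 was lower in classical monocytes of both origins, at log2 ratios of -1.37 in donor cells (interval -1.57 to -1.17) and -1.70 in recipient cells (-2.23 to -1.19), where Mt1 was inside 1.5-fold. The share of classical monocytes with an Mt2 UMI was 13.6% in RvD1 donor, 23.2% in vehicle donor, 7.86% in RvD1 recipient and 27.4% in vehicle recipient cells. Summed neutrophil markers in the same class were 1143 CPM in RvD1 donor, 403 CPM in vehicle donor, 630 CPM in RvD1 recipient and 1633 CPM in vehicle recipient cells, and their part in the result was not tested. Mt2 in recipient neutrophils was also lower, at -1.15 (-1.76 to -0.57), but at -0.50 with per-cell means it was inside 1.5-fold.

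Mt1 in NK cells was lower with RvD1 in both origins, at log2 ratios of -0.71 and -2.04, where 1.28% of genes passed that fold downward in both. With doublets kept the donor NK value was -0.42, inside 1.5-fold. Summed markers of neutrophils in NK cells were 1896 CPM in RvD1 donor, 114 CPM in vehicle donor, 538 CPM in RvD1 recipient and 1198 CPM in vehicle recipient cells. In vehicle recipient NK cells they were 5365 CPM in cells with an Mt1 UMI and 448 CPM in cells without. Their part in the NK values was not tested. In gamma-delta T cells, compared in donor cells only, it was -1.88, where 10.8% of genes were lower. In T cells it was 0.36 in donor and -1.10 in recipient cells, where 4.97% of genes were at least 1.5-fold lower in recipient cells. Mt2 in donor T cells was 0.65, where 5.41% were higher, but 0.33 without the cell with the most Mt2 UMIs and 0.15 with per-cell means. In donor T cells Mt1 was higher with RvD1 in the cluster led by Tnfrsf4, Ctla4 and Foxp3, a set of regulatory T cell genes, which had 266 CPM in RvD1 donor and 112 CPM in vehicle donor cells. In the cluster led by Ccl5, an effector chemokine, Mt1 had 23.1 CPM in RvD1 donor and 83.9 CPM in vehicle donor cells. A single RvD1 donor T cell held 29.1% of the Mt1 UMIs of its class, and without the Foxp3 cluster the donor log2 ratio was -1.20. Without the cell with the most Mt1 UMIs in each library, the donor log2 ratio of Mt1 in T cells was also below zero.

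Mt1 and Mt2 were higher in RvD1 donor B cells, at log2 ratios of 2.34 (interval 2.02 to 2.66) and 3.89 (2.95 to 5.0), where 4.38% of genes were at least 1.5-fold higher. Both values rested on 7 cells, which held 329 of the 345 Mt1 UMIs and 93 of the 94 Mt2 UMIs of the class. Those 7 cells had 40332 CPM of Jchain, the joining chain of secreted immunoglobulin, against 654 CPM in the other 267 cells. In the B cell cluster led by Igha and Jchain, Mt1 had 668 CPM in RvD1 donor and 94.6 CPM in vehicle donor cells, and in the cluster led by Ebf1 and Cd79a it had 20.9 and 18.5 CPM. Summed neutrophil markers were 92.5 CPM in the 7 cells and 1959 CPM in the other RvD1 donor B cells, and summed alveolar macrophage markers were 840 and 3.07 CPM in the same order. At Leiden resolution 2 the Mt1 ratio of donor B cells was -0.31.

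Mtf1 passed 1.5-fold in 3 comparisons. It was described in 13 comparisons, at least 1.5-fold lower in 2 and higher in 1, and its median log2 ratio was -0.13, beside all-gene medians between -0.28 and 0.12. The lower values were -0.92 in donor dendritic cells (interval -1.59 to -0.30), where 9.13% of genes were lower, and -0.61 in recipient NK cells, where 4.74% were, and the NK value was inside 1.5-fold under 4 alternatives (-0.51 to -0.57). The higher value was 0.65 in recipient neutrophils, where 12.2% of genes were higher, and it was inside 1.5-fold under 3 alternatives (0.53 to 0.57).

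Recipient and donor cells were also compared within each treatment, each pair inside 1 Cell Ranger version. Of all described values of all genes, 7.34% were at least 1.5-fold lower and 3.17% higher. Mt1 was at least 1.5-fold higher in recipient than in donor neutrophils in both treatments, at log2 ratios of 0.61 with RvD1 and 1.06 with vehicle, where 1.37% of genes were higher in both, and the RvD1 value was 0.56, inside 1.5-fold, at Leiden resolution 2. In the vehicle libraries recipient neutrophils were above donor neutrophils in 5 of 6 clusters, the exception being the cluster led by Mrgpra2b with 247 CPM in recipient and 279 CPM in donor cells. Over the clusters of all classes, the recipient to donor ratio of Mt1 was below zero in 6 of 16 with vehicle and in 8 of 16 with RvD1. Recipient B cells had less Mt1 than donor B cells, at -3.18 with RvD1 and -0.94 with vehicle, where 0.754% of genes were lower in both, and the RvD1 value was -0.54, inside 1.5-fold, at the finer clustering. Recipient T cells had less Mt2, at -3.12 and -0.62, where 7.72% were lower in both, and the vehicle value was inside 1.5-fold under 3 alternatives (-0.39 to -0.41). In RvD1 donor T cells, 5 cells held 62 of the 76 Mt2 UMIs. The T cell class also sits in different clusters by origin: the cluster led by Atp8a2 and Ccl5 held 10.3% of RvD1 recipient, 46.7% of RvD1 donor, 10.7% of vehicle recipient and 42.7% of vehicle donor T cells, and the cluster led by Trib2 held 45.2%, 12.8%, 39.3% and 20.4% in the same order. Mtf1 was described in 12 such comparisons and passed 1.5-fold in 0 of them, and Slc30a1 passed it in 1 of 10, in RvD1 B cells at 1.39, where 6.50% of genes were higher.

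The zinc exporters other than Slc30a1 gave 53 described values, of which 13.2% were at least 1.5-fold lower and 5.66% higher with RvD1, with a median log2 ratio of -0.24. Slc30a7, which loads zinc into the secretory pathway, was described in all 14 comparisons, lower in 3 of them, with a median of -0.40. Slc30a5, which works in the same pathway, passed 1.5-fold in 0 of 13. The zinc importers gave 77 values with 14.3% lower and 1.30% higher and a median of -0.12. Slc39a13 in neutrophils was lower in both origins, at -0.89 and -0.91, where 9.4% of genes were lower in both. Slc39a14, which brings zinc into cells in inflammation, was 0.35 and 0.39 in donor and recipient classical monocytes.

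Genes that MTF1 is known to act on, without the members, gave 58 values, 19% lower and 12.1% higher, with a median of -0.13. These genes differed in direction. Medians were -1.02 for Slc40a1, -0.39 for Csrp1, -0.36 for Gclc, 0.14 for Slc39a10 and 0.48 for Selenow, and Pgf had 0.71 in 1 comparison. Ndrg1, a gene of the hypoxia and stress response, was higher in classical monocytes of both origins at 0.60, where 0.953% of genes were higher in both. Over its 11 described comparisons Ndrg1 was below zero in 8 and at least 1.5-fold lower in 2, with a median of -0.13. Slc40a1, the iron exporter ferroportin, was lower in nonclassical monocytes at -1.14 and -3.13, where 5.84% of genes were lower in both origins. Copper genes gave 97 values, 13.4% lower and 1.03% higher, with a median of -0.05. Slc31a2, a copper channel of endosomes, was lower in classical monocytes, nonclassical monocytes and neutrophils of both origins (log2 ratios -1.62 to -0.62). In these classes 2.69%, 5.84% and 9.4% of genes were lower in both origins.

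Lists of other known inducers of metallothioneins were set beside the members. The glucocorticoid list gave 118 values, 5.93% lower and 5.93% higher, with a median of -0.02, and the STAT3 list gave 109, 11.9% lower and 4.59% higher, with a median of -0.09. The NRF2 list, of genes that answer oxidants, gave 96 values, 25% lower and 9.38% higher, with a median of -0.21. Its genes differed in direction. Slc7a11 was lower in 7 and higher in 3 of 12 comparisons, and Srxn1 was lower in 0 and higher in 3 of 9. Hmox1, the heme oxygenase of that list, was at least 1.5-fold lower in 6 of 7 comparisons. It was -1.08 and -1.38 in donor and recipient classical monocytes, where 2.69% of genes were lower in both. In neutrophils it was -1.26 and -2.25, where 9.4% were. Zinc-chelating proteins gave 36 values, 33.3% lower and 38.9% higher, and S100a8 in B cells was 4.72 in donor and -2.16 in recipient cells, and the summed neutrophil markers moved with it (1833 and 81.0 CPM in RvD1 and vehicle donor, 293 and 1148 CPM in RvD1 and vehicle recipient cells). Their part in the B cell values was not tested.

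Across 29 sums over a class and library, each of at least 100 cells, Pearson's r of log2(CPM + 10) was 0.80 between Mt1 and Mt2, 0.73 between Mtf1 and Slc30a1 and 0.34 between Mt1 and Slc30a1. Sums share libraries and cell depth, so these values are descriptions. Of 10886 genes, the ones most like Mt1 were Rab7b (r = 0.946), Fabp5 (0.924), Tbxas1 (0.921), Acvrl1 (0.916) and Sh3pxd2b (0.909), and the ones most like Mt2 were Nrp2 (0.946), Phldb1 (0.923), Dst (0.917), Plxna1 (0.912) and Mrc1 (0.910). Mtf1 was most like Senp5 (0.873), Acly (0.87), Tmx3 (0.866), Tgfbrap1 (0.864) and Timm29 (0.860), and Slc30a1 most like Bud31 (0.915), Mgat2 (0.904), Mettl6 (0.899), Eif3j1 (0.884) and Arl1 (0.881).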

How the data were processed

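The deposited 10x matrices hold raw UMI counts by gene and barcode, which the authors made with Cell Ranger (its version is in the file headers). Build mm10 and Seurat 4.0.0 are named in the submitters' processing notes. The sources used here do not say whether intron reads were counted or doublets removed before deposit.

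Barcodes under 200 genes or over 10% mitochondrial UMIs were dropped, and doublets called per library with Scrublet (scanpy 1.11.5, 0.8% expected per 1000 cells) were removed. The libraries were clustered together (2000 variable genes per library, without the 4 members, 30 components, 15 neighbours, Leiden resolution 1, leidenalg 0.10.2), and mixed clusters were clustered again, a step chosen after the clusters were seen. Clusters were named from fixed markers, with at least 3 of them detected in at least 10% of cells. Python 3.11.15, numpy 2.4.6, scipy 1.17.1 and pandas 2.3.3 were used.

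The UMIs of each class in each library were added up and scaled to CPM. Log2 ratios of CPM carry no pseudocount, with a floor of 3 counts for a library at 0, exact binomial intervals for ratios, Poisson for CPM and Clopper-Pearson for shares, all at 95% and all covering counting error only. Depth per library is given above as total UMIs. The ratio step was tested on simulated Poisson counts: of 190 genes changed 2-fold among 8631 in classical monocytes, 98.4% were recovered, and 0.367% of unchanged genes were called. The simulated counts held no differences between cells, animals, libraries or software versions. These rates therefore cover counting error only and are not error rates of the real comparisons. Positions are from GENCODE M21, where 32158 of 32285 identifiers matched.

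The members and gene lists were chosen with earlier results of these data known. Genes named beside the members were, per list and class, up to 3 with the largest smaller absolute ratio over both origins, and the 5 most correlated with each member. Alternatives covered doublets, mitochondrial share, clustering, scaling, cell weighting, top cells, and the UMI, cell and fold minimums.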

Additional observations from a re-analysis of the deposited data

Results flagged for a closer look

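Mt1 in T cells moved in opposite directions with RvD1 in the 2 origins, at log2 ratios of 0.36 in donor cells and -1.10 in recipient cells. The difference between the origins was not tested, since each group is 1 library. With each library clustered alone the donor value was -1.05, and without the T cell cluster led by Tnfrsf4, Ctla4 and Foxp3 it was -1.20. The donor value was also below zero without the 1 cell per library with the most Mt1 UMIs.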

How the results depend on the processing

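No paired analysis was possible because each group is 1 library. Of the 14 described Mt1 ratios of RvD1 to vehicle, 10 kept their sign under every alternative run and 4 did not: donor B cells, recipient B cells (0.10, down to -0.12 without cluster 19), donor T cells (0.36, down to -1.20 without cluster 14) and donor dendritic cells (-0.10, up to 0.02 at Leiden resolution 2). The main counts of values at least 1.5-fold were 8 metallothionein ratios of RvD1 to vehicle lower and 3 higher, 7 of recipient to donor lower and 3 higher, 10 zinc regulation ratios (Mtf1 and Slc30a1) of RvD1 to vehicle lower and 1 higher, and 0 of recipient to donor lower and 1 higher. Metallothionein higher with RvD1 became 1 at Leiden resolution 2, without the cell with the most UMIs, at 200 UMIs and without B cell cluster 19. Metallothionein lower with RvD1 became 4 at 200 UMIs. Metallothionein lower in recipient cells became 4 without the top cell and at 2-fold and 3 at 200 UMIs, and higher in them became 1 at 2-fold. Zinc regulation lower with RvD1 became 6 at 200 UMIs and 3 at 2-fold, and higher became 0 with scaling by the median ratio, with per-cell means, at 2-fold and without neutrophil cluster 0. Zinc regulation higher in recipient cells became 0 with a 5% mitochondrial limit, at Leiden resolution 2, with each library clustered alone, with members kept, without the top 1% of cells, without the top cell, at 200 UMIs and without B cell cluster 19, and 2 with per-cell means, and lower became 1 with each library alone. Mt1 in donor B cells reversed to -0.31 at Leiden resolution 2. The causes were not tested. Alternatives without a cluster were added after the data were seen. Depth limits Slc30a1 in neutrophils, with 12 to 43 UMIs per library.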
